A study of Mus musculus with 12 samples.

Results

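The expression and ribosome occupancy of 10 iron genes were examined in livers of Mettl5 knockout (KO) mice and wild-type (WT) littermates. The genes were Tfrc, Tfr2, Fth1, Ftl1, Slc40a1, Hamp, Aco1, Ireb2, Hfe and Slc11a2. They were selected by name from the table of normalized values, in which all 10 of the named genes were found among 10607 genes, and the choice was made because Tfrc footprints were known to be lower in KO. The footprint change of Tfrc is therefore a description and not a test, and the other footprint changes are given in the same way. METTL5 places N6-methyladenosine on 18S rRNA, and the libraries address whether its loss changes which liver transcripts are translated.

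Livers came from 3 WT and 3 KO mice. Mice with the same number were taken as littermates, which gave 3 litters of 1 mouse of each genotype. The knockout removed a floxed exon 2 of Mettl5 in the whole body through CMV-Cre, on C57bl/6 and 129S6 hybrid stem cells later backcrossed to C57bl/6. Lysates of both genotypes held cycloheximide, which keeps ribosomes on their transcripts. From each liver, part of the lysate was sequenced as input, a measure of how much transcript is present, and ribosome-protected fragments (RPF) released by micrococcal nuclease were sequenced apart, 12 libraries in all. Values are reads divided by 1 factor per library, called normalized reads here, and dividing the RPF value of a gene by its input value in the same mouse gave the translation efficiency (TE).

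Cells balance iron largely after transcription. Iron regulatory proteins, the products of Aco1 (IRP1) and Ireb2 (IRP2), bind a hairpin called the iron-responsive element (IRE) when iron is scarce. Bound to the 5′ UTR, as in ferritin and ferroportin transcripts, they block the start of translation. Bound to the 3′ UTR of Tfrc, they protect the transcript from decay, so that a cell short of iron makes more receptor and less ferritin. The liver also sets iron for the whole body, because hepatocytes sense transferrin iron through TFR2 and HFE and secrete hepcidin, the product of Hamp, which removes ferroportin from the surface of other cells.

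IRE-like letters were found in the UTRs of 5 of the 10 genes. The search asked for C, 5 bases, CAGTGN and 5 bases on the transcript strand of annotated mouse transcripts (mm10), with at least 4 of the 5 possible pairs between both runs of 5 bases, G-T pairs included. In the 5′ UTR, 205 of 20580 genes (0.996%) had a match, among them Fth1, Ftl1 and Slc40a1. In the 3′ UTR, 872 of 20962 genes (4.16%) had a match, among them Tfrc with 4 sites and Slc11a2 with 1. With all 5 pairs required, the shares were 0.151% and 0.615%, and the single Slc11a2 site, with 4 pairs, no longer matched. The sites are shown because they separate the members by the end of the transcript that carries the hairpin. Capitals mark the unpaired C and the hexanucleotide loop.
Tfrc, 3′ UTR, site 1: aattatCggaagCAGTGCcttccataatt
Tfrc, 3′ UTR, site 2: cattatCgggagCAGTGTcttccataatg
Tfrc, 3′ UTR, site 3: ctatatCggagaCAGTGAtctccatatgt
Tfrc, 3′ UTR, site 4: aattatCgggaaCAGTGTttcccataatt
Slc11a2, 3′ UTR: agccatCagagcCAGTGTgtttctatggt
Fth1, 5′ UTR: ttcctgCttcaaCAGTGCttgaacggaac
Ftl1, 5′ UTR: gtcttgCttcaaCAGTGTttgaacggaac
Slc40a1, 5′ UTR: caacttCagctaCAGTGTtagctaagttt

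The Tfrc sites lay on the plus strand at chr16:32631219-32631247, chr16:32631598-32631626, chr16:32631663-32631691 and chr16:32631710-32631738, with the first C at bases 889, 1268, 1333 and 1380 of a 3′ UTR of 2458 bases. The Slc11a2 site, on the minus strand at chr15:100395153-100395181, began at base 38 of a 3′ UTR that 1 coding transcript carried. The Fth1 site was at chr19:9982732-9982760 (plus strand), the Ftl1 site at chr7:45459779-45459807 (minus strand) and the Slc40a1 site at chr1:45925465-45925493 (minus strand). A match is a run of letters and does not show that a protein binds there. Tfr2, Hamp, Aco1, Ireb2 and Hfe had no match in these windows.

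Input libraries held 8326325 to 11825643 counted read pairs, of which 59.9% to 77.7% fell on the 18S rRNA gene, mitochondrial rRNA genes and Lars2. The lowest share belonged to KO mouse 1, whose input library was also the deepest in the table of normalized values, with 5121304 of a range from 2398804 reads upward. RPF libraries held 4623826 to 9184242 reads. Mettl5 itself had 15.7 to 38.5 normalized input reads in WT and at most 9.30 in KO, and 47.8 to 58.4 normalized RPF reads in WT and 5.53 to 9.56 in KO, so no library went against its label. Hepatocyte markers were abundant in each liver, with a summed level over 8 genes of 671600 to 1124000 normalized RPF reads in WT and 629400 to 897800 in KO, Alb and Ttr leading. Stellate cell markers had a higher summed level in KO, beside every result below. Of the 7 tested in RPF, 6 were above 0, Lrat was below at -0.17, and 0 passed. Their summed RPF level over 7 genes in the table was 2609 to 3095 in WT and 3979 to 4472 in KO, their summed input level was 337 to 357 and 392 to 494, and Dcn and Ecm1, the leading genes, had RPF log2 fold changes of 0.55 ± 0.15 (SE) and 0.56 ± 0.17. Cholangiocyte and lymphoid or neutrophil markers were sparse in both genotypes. Their summed input levels were 23.5 to 31.4 and 9.44 to 22.1 in WT and 25.2 to 34.2 and 13.3 to 20.2 in KO, with Spp1, Sox9 and Ptprc leading and Mpo at 0 in every input library. In bulk liver, fewer cells of a type and less RNA per cell cannot be told apart, and the part of stellate cells in the results was not tested.

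Levels are compared between genes only per length. In WT livers, Hamp had the most footprints per kb of coding sequence, with 5605 ± 359 normalized RPF reads (SD, n = 3), followed by the ferritin heavy chain Fth1 with 2559 ± 244 and the light chain Ftl1 with 1266 ± 325. Tfr2 had 788 ± 69.1 and Tfrc 88.2 ± 9.81. The input levels per kb of exon of these receptors, 323 ± 10.0 and 26.4 ± 1.80, differed in the same direction. Aco1 had 648 ± 39.6 and Ireb2 160.5 ± 26.7. Slc40a1 had 357 ± 52.2, Hfe 97.5 ± 9.89 and Slc11a2 80.5 ± 13.6. In this order the WT mice of neighbouring genes did not overlap, except between Hfe, Tfrc and Slc11a2 at the low end. In input, per kb of exon, Ftl1 led with 1825 ± 480 normalized reads, ahead of Hamp with 1136 ± 123 and Fth1 with 1052 ± 59.7, of which the last pair overlapped.

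**Figure D1:**
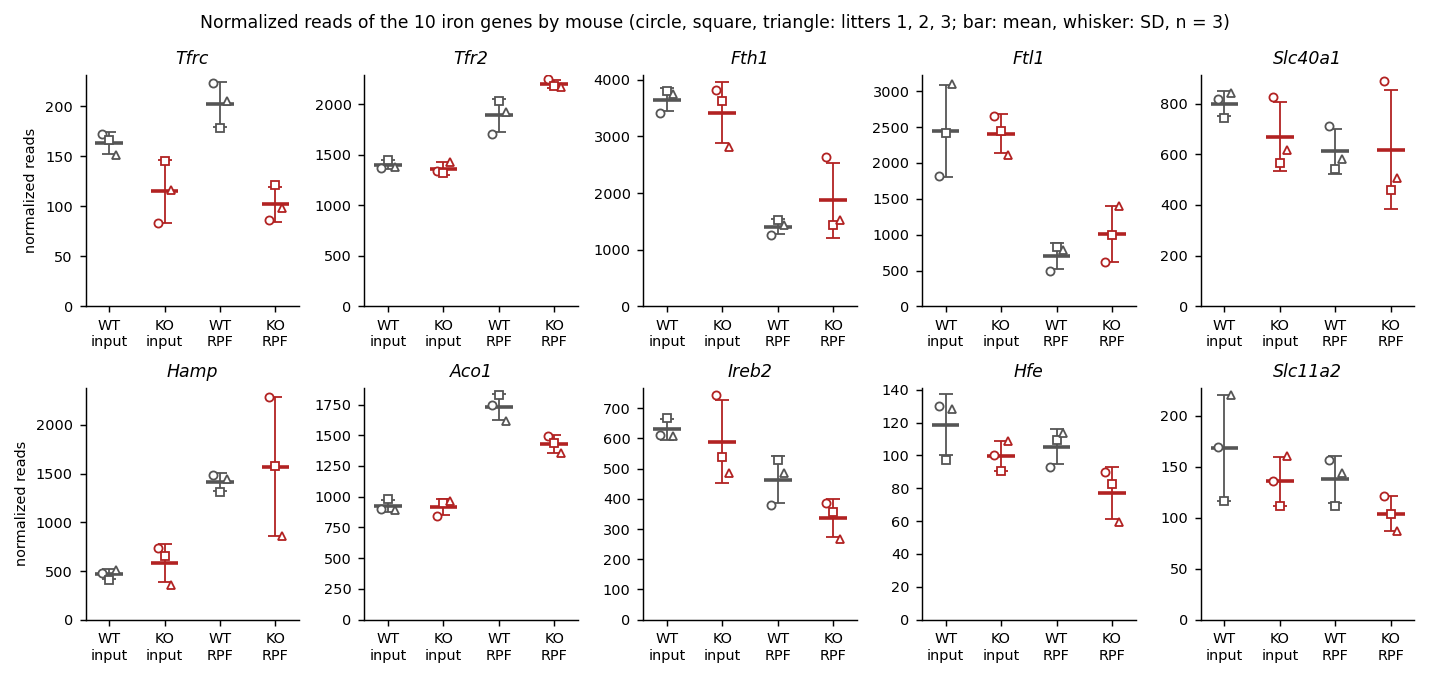
Normalized reads (y axes, from 0) of the 10 iron genes in input and RPF libraries of WT (grey) and KO (red) livers, with a symbol for each litter, a bar for the mean and a whisker for the SD of 3 mice. Tfrc footprints of the 3 KO mice lie at 86.2 to 121, below the 178 to 223 of WT mice, whereas ferritin and Hamp footprints spread most in KO.

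Tfrc, the transferrin receptor that takes up iron into most cells, had the largest RPF difference among the members, the measure for which it was chosen. Its normalized RPF reads were 223, 178 and 205 in WT mice 1, 2 and 3, and 86.2, 121 and 98.4 in KO mice 1, 2 and 3. The groups did not overlap, and the KO mouse was lower than its littermate in 3 of 3 litters. The mean was 202 ± 22.5 in WT and 102 ± 17.7 in KO (SD, n = 3), a log2 fold change of -0.99 ± 0.20 (SE). Across all genes, limma called 44 of 8994 in RPF (0.489%) at an adjusted p under 0.05, and Tfrc was the 1 member among them, a count from which nothing follows. That call was lost when any of WT mice 1, 2 and 3 or KO mice 2 and 3 was left out, while the log2 fold change stayed between -1.12 and -0.88.

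Input libraries were not used for the choice, and Tfrc was also lower there. They came from the same lysates as the footprints, so Tfrc input is not independent of the choice. Normalized input reads were 172, 166 and 151 in WT and 82.9, 145 and 117 in KO, with KO mouse 1 the lowest and no overlap between groups. The log2 fold change was -0.50 ± 0.20 (SE), which did not pass (edgeR quasi-likelihood test, adjusted p = 0.999 over 10057 genes). Without KO mouse 1, whose input library stood apart, it was -0.29. TE was 1.29, 1.07 and 1.36 in WT and 1.04, 0.836 and 0.843 in KO, a log2 difference of -0.45 ± 0.28 (SE). TE values did not overlap either, although the highest KO mouse was close to the lowest WT mouse.

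Tfrc had the lowest coding GC content of the members, 41.6% against a median of 52.5% over all genes tested, and across genes the RPF change correlated with GC content (Spearman 0.456 across genes, which share libraries and are not independent). Relative footprint counts changed by -0.17 to -0.08 log2 units per 10 points of GC in the WT libraries and by -0.01 to 0.28 in the KO libraries. With the GC trend of each library removed, the Tfrc log2 fold change was -0.77 in RPF and -0.30 in TE, and the RPF call was lost without the litter term and held with it. Of 9 erythroid markers, all in the count table, the summed input level was 164.6 to 233 in WT and 152.8 to 195 in KO, and the summed RPF level of the 4 in the RPF table was 965 to 1673 and 784 to 1213. Epb42 was at 0 in every input library, and Alas2 and Hba-a2, the leading erythroid genes, had RPF log2 fold changes of -0.33 ± 0.16 (SE) and -1.14 ± 0.91. The erythroid ranges overlapped between genotypes, and their part in the Tfrc result was not tested.

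**Figure D2:**
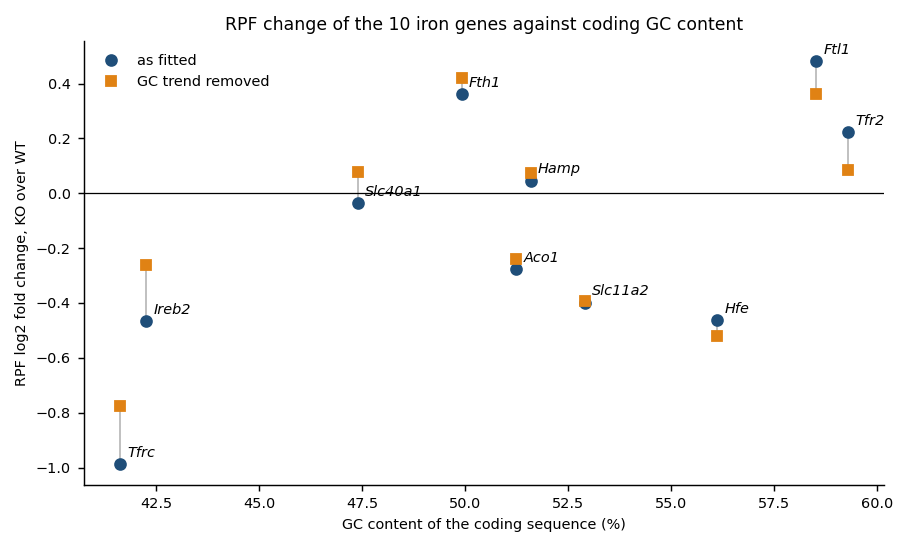
RPF log2 fold change of KO over WT (y axis) against GC content of the coding sequence in percent (x axis) for the 10 iron genes, as fitted (circles) and with the GC trend of each library removed (squares). Tfrc, at 41.6% GC, moves from -0.99 to -0.77 and Tfr2, at 59.3% GC, from 0.22 to 0.08.

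Tfr2, the second transferrin receptor, which hepatocytes use to sense iron-loaded transferrin, had the opposite sign. Normalized RPF reads were 1710, 2037 and 1922 in WT and 2247, 2180 and 2173 in KO. All 3 KO values lay above all WT values. The log2 fold change was 0.22 ± 0.12 (SE) in RPF, -0.02 ± 0.13 in input (edgeR adjusted p = 0.999) and 0.26 ± 0.17 in TE. Tfr2 had the highest coding GC content of the members, 59.3%, and with the GC trend removed the RPF and TE values were 0.08 and 0.12.

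Within a library, the ratio of Tfr2 to Tfrc reads depends on the GC trend of the library but not on the normalization factor. In RPF it was 7.67, 11.4 and 9.39 in WT and 26.1, 18.01 and 22.1 in KO, without overlap. In input it was 7.97, 8.74 and 9.14 in WT and 16.2, 9.09 and 12.3 in KO, where KO mouse 2 lay inside the WT range. The ratio of Fth1 to Tfrc footprints, which sets a transcript with a 5′ hairpin against one with 3′ hairpins, was 5.65, 8.55 and 6.99 in WT and 30.6, 11.9 and 15.6 in KO. KO mouse 1 stood far above the other mice in this ratio. In input it was 19.8 to 24.8 in WT and 24.1 to 46.2 in KO, and the groups overlapped. Tfrc is the denominator of all these ratios, so they hold the change for which the genes were chosen. They are also not corrected for GC content, and Tfrc and Tfr2, at 41.6% and 59.3%, are the extremes among the members. With the GC trend removed, the RPF log2 fold changes were -0.77 for Tfrc and 0.08 for Tfr2.

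**Figure D3:**
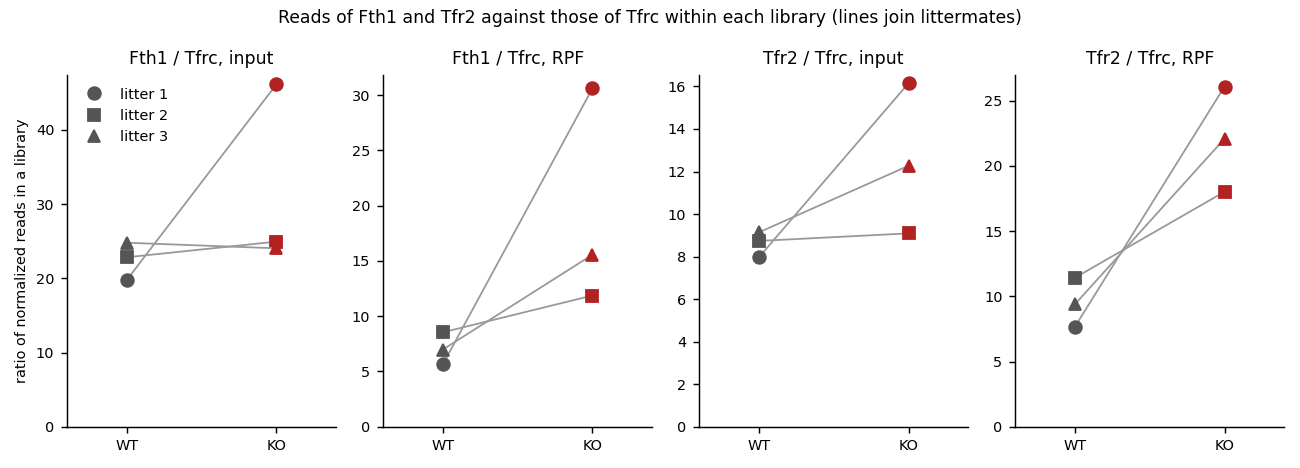
Ratio of Fth1 to Tfrc and of Tfr2 to Tfrc normalized reads (y axes, from 0) in input and RPF libraries of WT and KO livers, with lines joining littermates. In RPF the 3 KO mice lie at 11.9 to 30.6 for Fth1 and 18.01 to 26.1 for Tfr2, above the highest WT ratios of 8.55 and 11.4. The ratios are not corrected for GC content.

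Slc11a2 encodes DMT1, which carries ferrous iron out of the endosome. Its normalized RPF reads were 157, 112 and 144 in WT and 121, 104 and 87.0 in KO, and the groups overlapped. The KO mouse was lower in 3 of 3 litters, with a log2 fold change of -0.40 ± 0.22 (SE) in RPF. Input differed by -0.29 ± 0.23 (edgeR adjusted p = 0.999) and TE by -0.12 ± 0.31. The input value was -0.04 without WT mouse 3 and -0.51 without WT mouse 2, and TE turned to 0.12 without KO mouse 3.

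Ferritin stores iron as a shell of FTH1 and FTL1 subunits. Fth1 had 1260, 1524 and 1430 normalized RPF reads in WT and 2639, 1437 and 1532 in KO. KO mouse 1 alone lay above the WT mice by a wide margin, and the log2 fold change of 0.36 ± 0.19 (SE) was 0.08 without it. Ftl1 had 493, 821 and 783 in WT and 619, 996 and 1404 in KO, which overlapped, although the KO mouse was higher in 3 of 3 litters. Its log2 fold change was 0.48 ± 0.30 (SE), and 0.20 without KO mouse 3. The 2 subunits were thus highest in different KO mice.

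Ferritin transcripts did not pass the test of input. Input was 3649 ± 207 normalized reads in WT and 3416 ± 537 in KO for Fth1 (SD, n = 3), and 2446 ± 643 and 2406 ± 272 for Ftl1. The input log2 fold changes were -0.07 ± 0.15 (SE) and 0.00 ± 0.19 (edgeR adjusted p = 0.999 for both). TE of Fth1 was 0.369, 0.402 and 0.382 in WT and 0.690, 0.398 and 0.546 in KO. TE of Ftl1 was 0.272, 0.339 and 0.253 in WT and 0.233, 0.407 and 0.664 in KO. KO mice spread more than WT mice in both genes and overlapped with them, and the log2 differences in TE were 0.47 ± 0.27 and 0.48 ± 0.42. They moved with single mice: Fth1 was at 0.28 without KO mouse 1, and Ftl1 at 0.11 without KO mouse 3 and 0.86 without KO mouse 1. Processed copies of ferritin genes share sequence with them, and only reads with a single location were kept, so ferritin counts are uncertain. Ftl2-ps, the most counted copy, had 9 to 96 input counts.

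Slc40a1 encodes ferroportin, the exporter of cellular iron. Its normalized RPF reads were 712, 541 and 581 in WT and 889, 459 and 507 in KO, with KO mouse 1 the highest of all and the other KO mice the lowest. The log2 fold changes were -0.04 ± 0.21 (SE) in RPF, -0.22 ± 0.16 in input (edgeR adjusted p = 0.999) and 0.24 ± 0.30 in TE. Without KO mouse 1 the RPF value was -0.33 and the input value -0.42. Ferroportin is abundant in Kupffer cells, and the summed RPF level of their markers (11 of 12 in the RPF table, with Spic at no more than 2 input counts) was 2388 to 2900 in WT and 2268 to 3196 in KO. Clec4f and Cd5l, the leading Kupffer genes, had RPF log2 fold changes of -0.14 ± 0.18 and 0.24 ± 0.21.

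Hamp varied more between KO mice than between genotypes. Normalized RPF reads were 1483, 1310 and 1444 in WT and 2283, 1578 and 857 in KO, so that KO held both the highest and the lowest mouse. Input followed the same mice, with 482, 409 and 506 in WT and 737, 654 and 358 in KO. The log2 fold changes were 0.05 ± 0.34 (SE) in RPF, 0.36 ± 0.26 in input (edgeR adjusted p = 0.999) and -0.22 ± 0.49 in TE. That SE of TE took RPF and input as unpaired. Within genotypes, the pooled SD of log2 TE between mice was 0.161. The RPF value was -0.28 without KO mouse 1 and 0.43 without KO mouse 3. Hamp responds to inflammation, and the summed RPF level of 10 acute phase genes was 93160 to 119300 in WT and 69560 to 98740 in KO, which overlapped. Fga and Fgg, the leading acute phase genes, had RPF log2 fold changes of -0.07 ± 0.17 and -0.36 ± 0.21. Of the 7 tested in RPF, 2 were above 0 and 5 below, with a median of -0.33, and 0 passed. Orm1, named after its values were seen, was at -0.71 ± 0.18 (limma adjusted p = 0.0788). The part of inflammation in the Hamp values was not tested.

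The genes of both iron regulatory proteins had negative RPF fold changes, and neither passed. Aco1, whose product is an aconitase when it holds an iron-sulfur cluster and an IRE-binding protein when it does not, had 1747, 1827 and 1617 normalized RPF reads in WT and 1497, 1435 and 1354 in KO. The groups did not overlap, and the log2 fold change was -0.28 ± 0.12 (SE). Aco1 input was nearly equal, 923 ± 48.0 in WT and 918 ± 66.8 in KO (SD, n = 3), and the log2 fold change was 0.02 ± 0.13 (edgeR adjusted p = 0.999). TE was 1.94, 1.87 and 1.82 in WT and 1.78, 1.51 and 1.41 in KO, also without overlap, a log2 difference of -0.27 ± 0.17. Removal of the GC trend left -0.24 in RPF and -0.23 in TE.

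Ireb2, whose product is degraded when iron is plentiful, had 378, 528 and 486 normalized RPF reads in WT and 387, 355 and 267 in KO. WT mouse 1 lay inside the KO range, and the KO mouse was lower in 2 of 3 litters. The log2 fold changes were -0.47 ± 0.18 (SE) in RPF, -0.06 ± 0.17 in input (edgeR adjusted p = 0.999) and -0.35 ± 0.25 in TE, and TE was lower in the KO mouse in 3 of 3 litters. Like Tfrc, Ireb2 has a low coding GC content, 42.3%, and the RPF and TE values were -0.26 and -0.20 with the GC trend removed.

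Hfe encodes the membrane protein that binds transferrin receptors and takes part in hepcidin control. It had 93.2, 109 and 113 normalized RPF reads in WT and 89.7, 82.4 and 59.3 in KO, without overlap, although KO mouse 1 lay close to WT mouse 1. The log2 fold changes were -0.46 ± 0.19 (SE) in RPF, -0.23 ± 0.19 in input (edgeR adjusted p = 0.999) and -0.22 ± 0.27 in TE, which turned to 0.02 without KO mouse 3. Its input rested on 62 to 152 counts per library, the fewest of the members beside Tfrc, with 73 to 126, and Slc11a2, with 74 to 206.

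**Figure D4:**
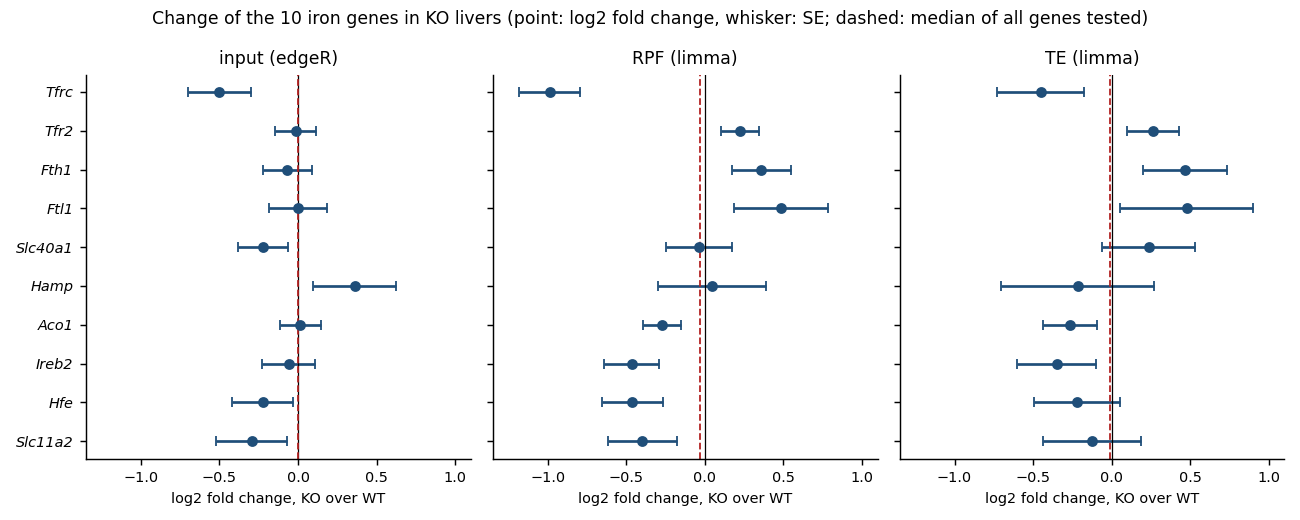
Log2 fold change of KO over WT (x axes) of the 10 iron genes in input, RPF and TE, with a whisker for the SE and a dashed line for the median of all genes tested. Tfrc lies lowest in each panel, at -0.50, -0.99 and -0.45, and Fth1 and Ftl1 lie at 0.36 and 0.48 in RPF and near 0 in input.

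Over the 10 members, the median log2 fold change was -0.06 in input, -0.16 in RPF and -0.17 in TE, beside -0.00037, -0.03 and -0.01 over all genes tested. In input, 3 members were above 0 and 7 below, and in RPF and in TE 4 were above and 6 below. No member passed in input or TE, as was true of all genes. The edgeR test of input called 0 of 10057 genes (0%), with 348 at an unadjusted p under 0.05 and 1 called by DESeq2. The limma test of TE called 0 of 8994 (0%), with 423 at an unadjusted p under 0.05 and 0 called by edgeR on the recovered reads. Groups of 3 that did not overlap were common among all genes. In RPF, 12.9% of genes had all KO values below all WT values and 6.97% all above, compared with 3 members (Tfrc, Aco1 and Hfe) and 1 member (Tfr2). In TE the shares were 7.34% and 6.08%, compared with 2 members (Tfrc and Aco1) and 1 (Tfr2), and in input 5.6% and 3.65%, compared with 1 (Tfrc) and 0. The RPF and TE counts include the change used to choose the genes, and nothing is read from them.

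TE per length in WT livers was not the measure used to choose the genes. It holds the WT footprints that also enter the Tfrc change, so for Tfrc it is not independent of the choice. TE per length was taken per base of coding sequence for RPF and per base of exon for input, and set against the median gene. Ftl1 was 4.47-fold below the median gene, a log2 level of -2.16 ± 0.30 (SE, limma adjusted p = 6.4e-05 over 8985 genes), and was in the 4.02 percentile of all genes. Reads that Ftl1 shares with processed copies were dropped in both assays, and RPF and input reads differ in length. Tfr2 was 1.27-fold below the median gene (-0.35 ± 0.12, limma adjusted p = 0.0155), a call that was lost when any WT mouse was left out (limma adjusted p 0.0516 to 0.108). It was also lost without the filter on low values (limma adjusted p = 0.0587). A fit of the paired RPF and input differences of the WT mice alone lost it too (limma adjusted p = 0.0661). Calls were common here: 2827 genes (31.5%) were above the median gene and 2653 (29.5%) below, of which members were 0 and 2. From highest to lowest the order was Hamp, Slc40a1, Tfrc, Aco1, Slc11a2, Hfe, Tfr2, Fth1, Ireb2 and Ftl1. Neighbours in that order overlapped between WT mice, except Hamp and Slc40a1 at the top and Ireb2 and Ftl1 at the bottom.

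The length used for input decided several of these levels. The exon length of the count table joins all isoforms of a gene, so that Fth1 has 3469 bases there and 929 in the transcript with the longest coding sequence, and Slc40a1 has 9000 and 3370. With the transcript length, Fth1 was 3.09-fold below the median gene (-1.63 ± 0.19, SE, limma adjusted p = 9.9e-07), which placed it next to Ftl1 at -2.00 ± 0.30 (limma adjusted p = 0.000132). Hamp was then 2.46-fold above it (1.30 ± 0.34, limma adjusted p = 0.00788), and Aco1 and Hfe were above it by 0.42 and 0.56 (limma adjusted p = 0.00603 and 0.0193). Ireb2 was below it by a log2 level of -0.46 (limma adjusted p = 0.0321), Tfr2 by -0.29 (limma adjusted p = 0.0442), and Slc40a1, with its 5′ site, by -0.42 (limma adjusted p = 0.0961). This length was chosen after the data had been seen, and under it 29.2% of all genes were above the median gene and 28.2% below, beside 3 and 4 members. Of the 3 members with a 5′ UTR match, the ferritins thus had low TE under it, and ferroportin did not pass under either length. Dropping reads shared with ferritin copies can weigh more on short RPF reads than on input read pairs. Its part in the low ferritin TE was not tested.

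**Figure D5:**
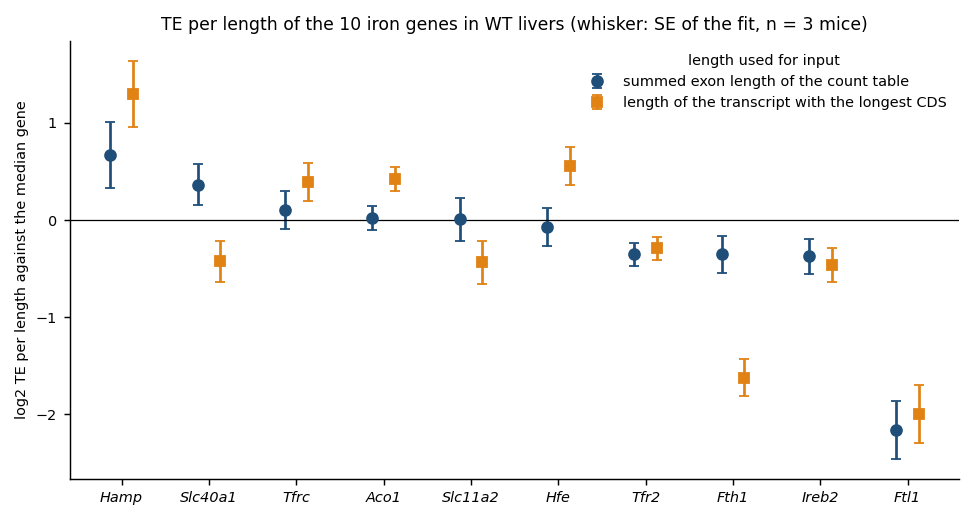
Log2 TE per length in WT livers against the median gene (y axis, 0 is the median gene) for the 10 iron genes in order, with whiskers for the SE, using the summed exon length (circles) or the length of 1 transcript (squares) for input. Ftl1 lies lowest under both, at -2.16 and -2.00, and Fth1 moves from -0.35 to -1.63.

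Other genes of iron biology were taken from 6 lists with 106 entries, chosen with earlier results of these data known. Hemojuvelin is entered both as Hjv, with RPF and TE values, and as Hfe2, with input values. Of 91 tested in input and 89 tested in RPF and TE, 0 passed in any of the 3. Of the 89, KO values were all above WT values for 12 and all below for 6 in RPF, beside 6.97% and 12.9% of all genes. In TE the counts were 9 and 7, beside 6.08% and 7.34% of all genes.

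Among 7 other transcripts with a known or proposed IRE, the median log2 fold change was -0.30 in input, -0.38 in RPF and -0.12 in TE, over 5 genes tested in input and 6 in RPF. Epas1, a hypoxia-inducible factor, was at -0.02 ± 0.12 (SE) in RPF (limma adjusted p = 0.963). Of the 6 tested in RPF, 5 were below 0. Hao1, which makes glyoxylate in the liver and had a 3′ UTR match with 4 pairs, is named after its values were seen. It had 3055 ± 36.0 normalized RPF reads in WT and 2126 ± 108 in KO (SD, n = 3), and KO values lay below WT values without overlap in RPF, TE and input. Its RPF log2 fold change of -0.52 ± 0.12 did not pass (limma adjusted p = 0.052). Cdc42bpa and Alas2, also named after their values were seen, were at -0.44 and -0.33 in RPF (limma adjusted p = 0.372 and 0.378).

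Transport and reduction genes had a median RPF change of 0.00 over 15 genes. Trf, the plasma iron carrier transferrin, had 100870 ± 2934 normalized RPF reads in WT and 102560 ± 12953 in KO (SD, n = 3), and its log2 fold change was 0.02 ± 0.14 (limma adjusted p = 0.97). Steap3, the endosomal ferrireductase, was at 0.26 ± 0.19, and Slc39a14, the ZIP14 importer of non-transferrin iron, at 0.11 ± 0.26. Cp, the ferroxidase ceruloplasmin, was at -0.31 ± 0.14, and the limma adjusted p of these was 0.329 to 0.888.

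Hepcidin signalling genes had a median RPF change of 0.12 over 21 genes, with 15 above 0 and 6 below. Hjv, the BMP co-receptor hemojuvelin, was at 0.23 ± 0.22 (SE) in RPF and 0.56 ± 0.31 in TE. Its input, entered as Hfe2, differed by -0.32 ± 0.18 (edgeR adjusted p = 0.999). Tmprss6, the protease that cleaves hemojuvelin, was at 0.51 ± 0.19 in RPF and 0.58 ± 0.26 in TE (limma adjusted p = 0.245 and 0.998). Bmp6, an endothelial ligand that signals iron stores, was thinly covered, with 4 to 29 counts per input library, and differed by -0.95 ± 0.44 there (edgeR adjusted p = 0.999). Id1, a target of BMP signalling, was at 0.08 ± 0.65 in RPF. The summed RPF level of 8 sinusoidal endothelial markers was 2177 to 2732 in WT and 2220 to 2992 in KO, and Stab2 and Kdr, the leading genes, were at -0.07 ± 0.16 and 0.09 ± 0.17.

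Genes of ferritin turnover and IRP control had a median RPF change of -0.09 over 11 genes. Ncoa4, the receptor for autophagy of ferritin, was at -0.09 ± 0.31 (SE), Pcbp2, an iron chaperone, at -0.08 ± 0.16, and Fbxl5, which targets IRP2 for degradation, at 0.08 ± 0.18. Heme genes had a median of -0.14 over 13 genes. Hmox1, which breaks down heme, was at 0.20 ± 0.28, and Alas1, the rate-limiting enzyme of hepatic heme synthesis, at -0.81 ± 0.93, with 7343 ± 7028 normalized RPF reads in WT and 3396 ± 1745 in KO (SD, n = 3). Iron-sulfur cluster genes had a median of 0.17 over 23 genes. The limma adjusted p of the RPF changes named for ferritin turnover and heme genes was 0.76 to 0.922.

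The genes with RPF profiles most like Tfrc were found by the root mean square distance of log2 profiles, each centred on its mean, over 6 RPF libraries and 8993 other genes. They were Cyp39a1, Arf1, Birc3, Bpgm and Swi5, at distances of 0.14 to 0.17 log2 units beside a median of 0.56 over all genes. Their RPF log2 fold changes were -0.86 to -0.79. The nearest member was Slc11a2, at rank 715, and Ftl1 was the farthest, at rank 8350.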

How the data were processed

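Sample titles gave the genotype, the assay and a number for each mouse. The study states that controls were littermates, and mice with the same number were taken as littermates here. The deposited input table holds raw counts of read pairs. To make it, the authors used BBDuk for trimming and STAR 2.7.3a for alignment to mm10, and counted uniquely mapped pairs over exons by strand with featureCounts (version 1.6.0 in the methods, 2.0.3 in the file header). For RPF the authors mapped trimmed first reads to a single location with RiboToolkit, without removing duplicates. In the deposited table, the signal in 12 columns is reads divided by 1 factor per library, with no gene length, and multiplying back gave whole reads (tolerance 0.05 reads) for 100% of values. The sources do not say how these factors, or the genes of the table, were chosen. Its columns of the authors' fold changes and p-values were not used. Whether RPF were counted over exons or coding sequence is not stated, and coding length was used for RPF levels per kb.

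Input was tested with edgeR 4.0.16 (R 4.3.3, TMM, filterByExpr, robust quasi-likelihood, genotype as the term). RPF, TE and WT TE per length were fitted with limma 3.58.1 (trend, robust) on log2(value + 1), for genes averaging 10 or more in both assays, with 4 group means over 12 libraries. Fold changes on that scale understate low genes. P-values are two-sided and adjusted by Benjamini-Hochberg over all genes tested. The design foresaw normalized values, and edgeR on recovered reads and DESeq2 1.42.0 were run beside them. The GC trend was removed as a spline with 5 degrees of freedom per library. The fits were tested on simulated data.

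The members, lists and tests were chosen with earlier results of these data known. Named were all members, Mettl5, fixed genes of each iron list, in lists without one the 2 genes with the most WT footprints, and the 5 genes nearest to Tfrc. Some genes of these lists are not reported here. No other gene of the lists passed a test. IRE-like sites were read from GENCODE vM21 transcripts (mm10).

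Mice with the same number were taken as littermates and thus as paired. Correlations of littermates' deviations from their group means were 0.0816, 0.127 and 0.100 (input) and 0.242, 0.144 and 0.195 (RPF), against -0.117 to 0.0169 and -0.239 to 0.0813 for WT and KO mice of different litters. Deviations within a group sum to 0 for each gene. Positive values for littermates therefore push the other values below 0 on average, and the contrast is partly fixed by the centring. The study states no litter term, so fits without it come first. Neither sex nor age entered the fits. With 3 mice a group, p-values of input measure the spread between these livers. The limma fit gave each gene a residual spread shared by input and RPF libraries. Its SEs and p-values of RPF therefore do not measure the spread of footprints alone. The fits of TE and of WT TE per length took the RPF and input libraries of a mouse as unpaired. Their SEs and p-values therefore do not measure the spread of TE between mice. With a term for the mouse, the test of TE called 0 members and 0 genes.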

Additional observations from a re-analysis of the deposited data

How the results depend on the processing

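Of the 10 members, 0 passed in input and in TE under every alternative run. In RPF, 44 genes and 1 member (Tfrc) passed. Tfrc was chosen for its RPF change, so its RPF calls here describe that choice and test nothing. The count of members was 0 with the GC trend removed and by edgeR on whole reads, and 0 to 1 when a mouse was left out, and the cause was not tested. Over all genes the RPF count was 22 with the GC trend removed, 20 by edgeR on whole reads and 0 to 226 when a mouse was left out (0 without KO mouse 2, 226 without KO mouse 1). With the replicate block of litter it was 293, and 100 with the GC trend also removed, each with Tfrc among them. In input the count over all genes was 2 with the replicate block, 1 by DESeq2, 30 without the count filter and 0 to 21 when a mouse was left out (21 without KO mouse 2). With the GC trend removed, Tfrc passed in RPF with the block and not without it, and the block changed no other member's call in input, RPF or TE. In WT TE per length, 2 members passed. The count was 6 with no length scaling, 7 with the transcript length and 1 without the filter on low values, beside 57%, 57.4% and 57.5% of all genes. It was 1 when any WT mouse was left out. Another fit paired RPF and input within each WT mouse, without the KO libraries. There Hamp passed (0.67, limma adjusted p = 0.00538) and Tfr2 did not (-0.35, limma adjusted p = 0.0661). Signs of WT TE per length turned for Tfr2 (0.34) and Slc11a2 (-0.34) with no length scaling, for Slc40a1 with no length scaling (-0.48) and with the transcript length (-0.42), for Slc11a2 with the transcript length (-0.44), and for Hfe with the transcript length (0.56) and no filter (0.0058). Leaving out a WT mouse gave -0.24 to 0.10 for Hfe and -0.10 to 0.18 for Slc11a2. Input changes near 0 also turned. Leaving out a mouse gave -0.045 to 0.015 for Tfr2, -0.17 to 0.061 for Fth1, -0.17 to 0.21 for Ftl1, -0.013 to 0.071 for Aco1 and -0.28 to 0.066 for Ireb2, and Ftl1 was -0.00061 with RLE size factors and -0.0077 by DESeq2. In TE, leaving out KO mouse 3 turned the sign for Slc11a2 (0.12) and Hfe (0.02), and in RPF leaving out a mouse gave -0.33 to 0.15 for Slc40a1 and -0.28 to 0.43 for Hamp. IRE-like sites were found in 5 members, and in 4 when all 5 pairs were required. Input depth was 62 to 206 counts for Tfrc, Hfe and Slc11a2, which limits what could be detected in them.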

Other observations

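Beside Hamp, mice carry a paralog, Hamp2, which was named here after its values were seen. Its normalized RPF reads were 17.4, 13.7 and 23.7 in WT and 59.8, 80.5 and 42.0 in KO, without overlap, and the difference of 1.67 ± 0.41 (log2, SE) did not pass (limma adjusted p = 0.0733). WT input libraries held only 3 to 4 counts and KO input libraries 8 to 34, too few to be tested. Hamp and Hamp2 are close in sequence, and reads that could not be placed at 1 of them were dropped, so both counts are uncertain. Atoh8 and Smad7, targets of the BMP signalling that drives hepcidin, were also named after their values were seen. Atoh8 had 57.6 ± 35.6 normalized RPF reads in WT and 140 ± 47.4 in KO (SD, n = 3), and Smad7 12.1 ± 4.91 and 23.6 ± 5.10. In RPF neither group pair overlapped, and neither gene passed (limma adjusted p = 0.145 and 0.187).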
